A study of Homo sapiens with 9 samples.

Results

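Transcripts of 10 blood cell genes were followed in RNA sequencing libraries of HaCaT, a human keratinocyte line that grows without limit in culture. The 10 genes, of 58336 in the deposited count table, were chosen by their counts in the control libraries: each had counts in Nc1 and Nc2 and few or none in Nc3. They are 4 genes of red cells (HBB, HBA1, HBA2 and ALAS2) and 6 genes of leukocytes (FCGR3B, CSF3R, CXCR2, FPR1, LYZ and PTPRC). The labels describe 9 samples in 3 groups of 3: untreated HaCaT cells, and HaCaT cells given low-dose photodynamic therapy and sampled after 12 h or 48 h. That treatment combined 5-aminolevulinic acid (ALA) at 0.5 mmol per litre with red light (635 ± 5 nm, 3 J/cm2), and all cells were grown in medium with fetal bovine serum. Columns Nc1, Nc2 and Nc3 were read as the controls, an abbreviation that the labels do not spell out. The names of 6 further columns match neither treated group, so their values were not analysed here and no comparison of treated with control cells was made. Which treated libraries hold these transcripts is therefore not answered. All values below describe 3 libraries of 1 group, and the labels do not say whether these came from separate cultures.

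Red cells carry hemoglobin, a tetramer of alpha and beta globin chains around heme, and their globin messenger RNA persists after the nucleus is lost. ALAS2 is the erythroid synthase that makes 5-aminolevulinic acid, the compound given in this study, and ALAS1 is its counterpart in other tissues. Neutrophils, the most abundant granulocytes of blood, are known for the receptors FCGR3B (a receptor for antibody), CSF3R (for granulocyte colony-stimulating factor), CXCR2 (for chemokines) and FPR1 (for formylated bacterial peptides). LYZ encodes lysozyme, which is abundant in monocytes and neutrophils, and PTPRC encodes CD45, carried by leukocytes in general.

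Stretches of the promoters are shown because the members are genes of red cells and of leukocytes, most of the latter myeloid. GATA1, which drives erythroid genes, binds around AGATAA, and PU.1, which drives myeloid genes, binds around AGGAAGT. RefSeq promoter sequences (GRCh38.p14) were matched for 6 of the 10 members, and the 250 bases before each start were searched on both strands. The 5 leukocyte members found there have 8 start windows, of which 4 held AGGAAGT, 1 each in FCGR3B (of 3 starts), CXCR2, PTPRC and FPR1. Of all 35116 windows, 7.0% held it. ALAS2 held AGATAA, which 9.2% of the windows held. CSF3R did not hold AGGAAGT in its 2 windows, and a match is a description of letters and not of binding. Each line below reads 5′ to 3′ on the gene's strand, with the motif or its reverse complement in capitals. The position of the ALAS2 stretch is chrX:55031072-55031131 (minus strand). Those of FCGR3B, CXCR2, PTPRC and FPR1 are chr1:161631996-161632056 (minus), chr2:218125977-218126027 (plus), chr1:198638913-198638973 (plus) and chr19:51751940-51752000 (minus).
ALAS2: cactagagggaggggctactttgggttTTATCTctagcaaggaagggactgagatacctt
FCGR3B: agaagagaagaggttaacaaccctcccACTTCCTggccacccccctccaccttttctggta
CXCR2: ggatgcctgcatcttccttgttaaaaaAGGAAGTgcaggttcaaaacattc
PTPRC: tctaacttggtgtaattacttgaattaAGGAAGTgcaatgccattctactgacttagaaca
FPR1: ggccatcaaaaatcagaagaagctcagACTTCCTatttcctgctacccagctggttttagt

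The 3 libraries were of similar depth, Nc1 holding 16989712 counts, Nc2 16354678 and Nc3 16702425. A gene without a count is bounded at 3 counts, which is 0.177 to 0.183 CPM (counts per 1000000 counts of the library). Such limits and all intervals here cover counting error alone. A fold over such a limit takes the count in Nc1 or Nc2 as observed, without its own error, and is no lower bound. The 14 genes listed for keratinocytes summed to 220777 to 240958 counts per library. The highest were KRT7, KRT8, KRT19 and KRT18, keratins known from simple epithelia, so the sum does not by itself mark keratinocytes. In Nc1, Nc2 and Nc3, KRT5 had 7200, 5929 and 7269 counts and TP63 3491, 2255 and 2689, but KRT14 had 9, 8 and 15. In bulk RNA, fewer cells of a type and less RNA per cell cannot be told apart.

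The globin genes held most of the member counts. HBB, the beta chain of adult hemoglobin (ENSG00000244734, GRCh38, chromosome 11, 5225464 to 5229395, minus strand), stood at 394 CPM in Nc1, 408 CPM in Nc2 and 0.120 CPM in Nc3, or 6700, 6665 and 2 counts. HBB was 3293-fold higher in Nc1 than in Nc3 (95% exact interval 911 to 27199.9) and 3403-fold higher in Nc2 (942 to 28108). HBA2, one of the paired alpha globin genes (ENSG00000188536, chromosome 16, 172876 to 173710), stood at 32.4, 38.9 and 0.0599 CPM in the same order. HBA1, the other alpha gene (ENSG00000206172, chromosome 16, 176680 to 177522), stood at 5.00 CPM and 9.48 CPM in Nc1 and Nc2 and had no count in Nc3. All 3 globins thus lay in Nc1 and Nc2, with 1 or 2 counts of HBA2 and HBB left in Nc3. HBA1 stood at 27.9-fold the 3-count limit of Nc3 in Nc1 and at 52.8-fold in Nc2.

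ALAS2 (ENSG00000158578, chromosome X, 55009055 to 55031064, minus strand) had 19, 16 and 0 counts, or 1.12, 0.978 and 0 CPM. It stood at 6.23-fold the 3-count limit of Nc3 in Nc1 and at 5.45-fold in Nc2. ALAS1 had 771, 669 and 759 counts and so was present at a like level in the 3 libraries.

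Among the granulocyte receptors, FCGR3B (ENSG00000162747, chromosome 1, 161623196 to 161631963, minus strand) had 76 counts in Nc1, 79 in Nc2 and none in Nc3, or 4.47, 4.83 and 0 CPM. CSF3R (ENSG00000119535, chromosome 1, 36466043 to 36483278, minus strand) had 47, 51 and 0 counts. CXCR2 (ENSG00000180871, chromosome 2, 218125289 to 218137253) had 37, 39 and 1 counts. FPR1 (ENSG00000171051, chromosome 19, 51745172 to 51804110, minus strand) had 22, 18 and 0 counts. These 4 genes summed to 182 counts in Nc1 and to 187 in Nc2, and 1 count of CXCR2 was all that Nc3 held of them. FCGR3B stood at 24.9-fold the 3-count limit of Nc3 in Nc1 and at 26.9-fold in Nc2.

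LYZ (ENSG00000090382, chromosome 12, 69348341 to 69354234) had 47, 22 and 0 counts, or 2.77, 1.35 and 0 CPM. PTPRC (ENSG00000081237, chromosome 1, 198638457 to 198757476) had 103, 78 and 12 counts, or 6.06, 4.77 and 0.718 CPM. PTPRC was the member with the most counts in Nc3, and its ratio was 8.44 in Nc1 (95% exact interval 4.63 to 16.9) and 6.64 in Nc2 (3.59 to 13.4). Since these values chose the 10 genes, their difference from Nc3 is given as a description, without a test.

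**Figure D1:**
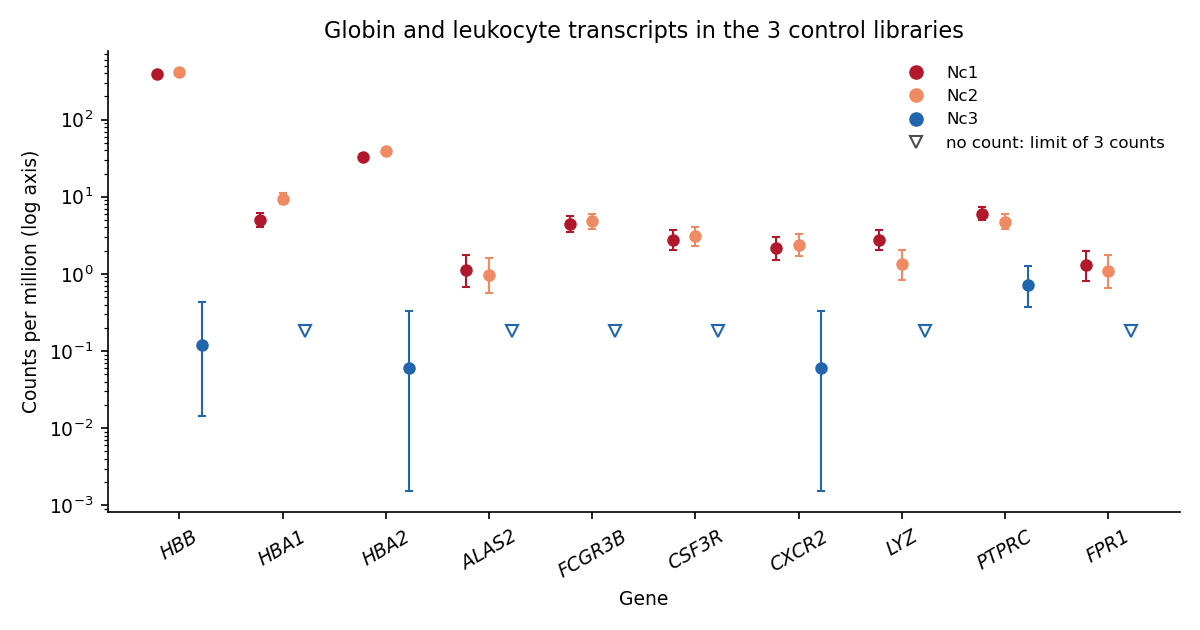
CPM (log axis) of the 10 genes in the 3 control libraries; circles are libraries, bars are 95% exact Poisson intervals, and open triangles mark the 3-count limit where a gene had no count. Nc3 lies below Nc1 and Nc2 for each gene, as the choice of genes implies, and is highest for PTPRC at 0.718 CPM; HBA1 differs between Nc1 (5.00 CPM) and Nc2 (9.48 CPM).

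Per length, in the authors' FPKM (counts per kilobase of gene, scaled by the authors for depth), HBB stood at 289 in Nc1 and 329 in Nc2. HBA2 followed at 37.4 and 49.6 FPKM, and HBA1 at 5.72 and 12.0 FPKM. These 3 did not overlap each other, or any other member, over both libraries. The leukocyte genes and ALAS2 were lower: FCGR3B stood at 1.39 and 1.66 FPKM, LYZ at 1.50 and 0.804, CXCR2 at 0.643 and 0.778, and PTPRC at 0.631 and 0.548. At the lower end, ALAS2 stood at 0.500 and 0.483 FPKM, FPR1 at 0.477 and 0.447, and CSF3R at 0.313 and 0.390. From FCGR3B down to CSF3R, the counting intervals of each gene overlapped those of the next in this order, so neighbours among these 7 are not told apart. The length in these values is the one the table lists for each gene, which is not the span between its printed start and end and may differ from that of the expressed transcript.

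Close copies limit how the globin counts can be divided. In GENCODE release 29, 80.0% of the 150-base stretches of HBA1 transcripts, the read length of this study, occur whole in transcripts of HBA2. The share of HBA1 in the alpha globin counts was 13.4% in Nc1 (95% Wilson interval 10.9 to 16.2) and 19.6% in Nc2 (17.0 to 22.5). How reads that match both genes were counted is not given in the sources used here. FCGR3B shared 4.7% of its stretches with FCGR3A, the form of the receptor on natural killer cells and some monocytes. HBB shared none with HBD and CXCR2 none with CXCR1, its neighbouring paralog.

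Nc1 and Nc2 were set against each other, a contrast that did not choose the genes. An exact binomial test of the counts, on library sizes scaled by edgeR's TMM, called 6982 of 14702 genes at a Benjamini-Hochberg adjusted p under 0.05, or 47.5%. It called 3 of the 10 members, a smaller share, and many members had few counts to test. HBA1 was lower in Nc1, at 0.457 of its rate in Nc2 (95% exact interval 0.346 to 0.599, adjusted p = 2.24e-08 by that exact test). HBA2 was at 0.720 (0.641 to 0.808, adjusted p = 1.03e-07, exact test) and HBB at 0.837 (0.809 to 0.866, adjusted p = 1.42e-23, exact test). With library totals in place of TMM sizes HBB lost its call and LYZ gained one. The test compares these libraries, not conditions, and takes counting noise as the sole error.

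The other 7 members did not pass the test between Nc1 and Nc2. LYZ had the highest ratio, 1.78 (95% exact interval 1.05 to 3.10, adjusted p = 0.0592 by the exact test). FCGR3B stood at 0.801 (0.577 to 1.11), CSF3R at 0.767 (0.505 to 1.16) and CXCR2 at 0.790 (0.490 to 1.27). FPR1 at 1.02 (0.521 to 2.01) and ALAS2 at 0.989 (0.482 to 2.06) had the widest intervals, which leave differences of about that size undetected.

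**Figure D2:**
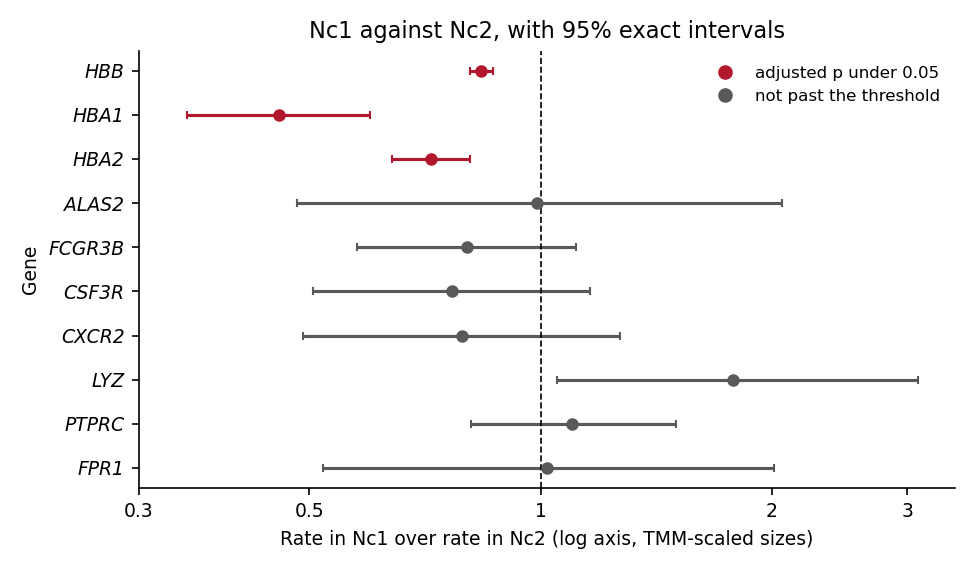
Rate of each member in Nc1 over its rate in Nc2 (log axis, TMM-scaled library sizes); points are ratios and bars are 95% exact intervals. HBB, HBA1 and HBA2 lie below 1 and passed the test, while LYZ, at 1.78, lies farthest above 1 and did not.

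Red cell and leukocyte members lie in the same libraries because they were chosen so, and their proportion was compared between Nc1 and Nc2, which the choice did not use. The 6 leukocyte members summed to 332 counts in Nc1 and 287 in Nc2, and the 3 globins to 7336 and 7457. The higher leukocyte sum in Nc1 lay in LYZ (47 and 22 counts) and PTPRC (103 and 78). FCGR3B, CSF3R, CXCR2 and FPR1 summed to 182 and 187. Leukocyte counts were 45.3 per 1000 globin counts in Nc1 and 38.5 in Nc2, an odds ratio of 1.18 (95% interval 0.998 to 1.39, p = 0.0490 by a two-sided Fisher's exact test). This p lies just under 0.05 while the interval includes equal odds, so no firm difference was found. The test takes counting noise as the sole error. Without PTPRC, which Nc3 also held, the ratios were 31.2 and 28.0 (odds ratio 1.11, p = 0.286, Fisher's exact test). With HBB as the sole globin the odds ratio was 1.15 (p = 0.0919, Fisher's exact test), so p was not under 0.05 with either change. In Nc3 the globins summed to 3 counts and the leukocyte members to 13, of which PTPRC made up 12.

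The whole table was then searched for genes with the pattern of HBB. Of 12928 genes with at least 10 counts in Nc1 and in Nc2, 27 were at least 4-fold higher in both than in Nc3 (with Nc3 set to no less than 3 counts), or 0.209%. All 10 members are among them, as their choice implies. In the opposite direction, 4 of 13344 genes with at least 10 counts in Nc3 were at least 4-fold lower in both Nc1 and Nc2: NSFP1, AC136475.2, HIST2H4B and HERC2P3, none of them in a blood cell list. The 27 genes summed to 8040, 8068 and 51 counts. Just inside the threshold stood the pseudogenes AL391058.1 (21, 12 and 3 counts) and GLUD1P3 (13, 17 and 3), and among those just outside stood LSP1, a cytoskeletal protein of leukocytes, at 12, 15 and 1 counts.

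Of the 17 genes beside the members, 4 belong to the blood cell lists described below. MNDA, a nuclear antigen of myeloid cells, had 21, 19 and 0 counts, in the order of the library numbers used throughout. HCLS1, a cytoskeletal adaptor of hematopoietic cells, had 42, 23 and 4, the chemokine receptor CXCR1 of neutrophils had 16, 14 and 0, and VNN2, a surface enzyme of neutrophils, had 13, 17 and 2. The other 13 were in no list. The 15 genes most like HBB held all 10 members, MNDA, HCLS1 and 3 others. INPP5D, a lipid phosphatase of hematopoietic cells, had 26, 18 and 2 counts. GYPC, a glycophorin of the red cell membrane, had 18, 23 and 0, and DOCK2, which drives leukocyte migration, had 20, 16 and 2. Further down, and named after their values were seen, ITGB2, the beta chain of leukocyte integrins, had 37, 21 and 4 counts, and LCP2, a signalling adaptor of leukocytes, had 22, 13 and 2. NNAT, known from developing brain and likewise named afterwards, had 16, 16 and 1. Passing the threshold thus did not by itself mark a gene as one of blood.

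**Figure D3:**
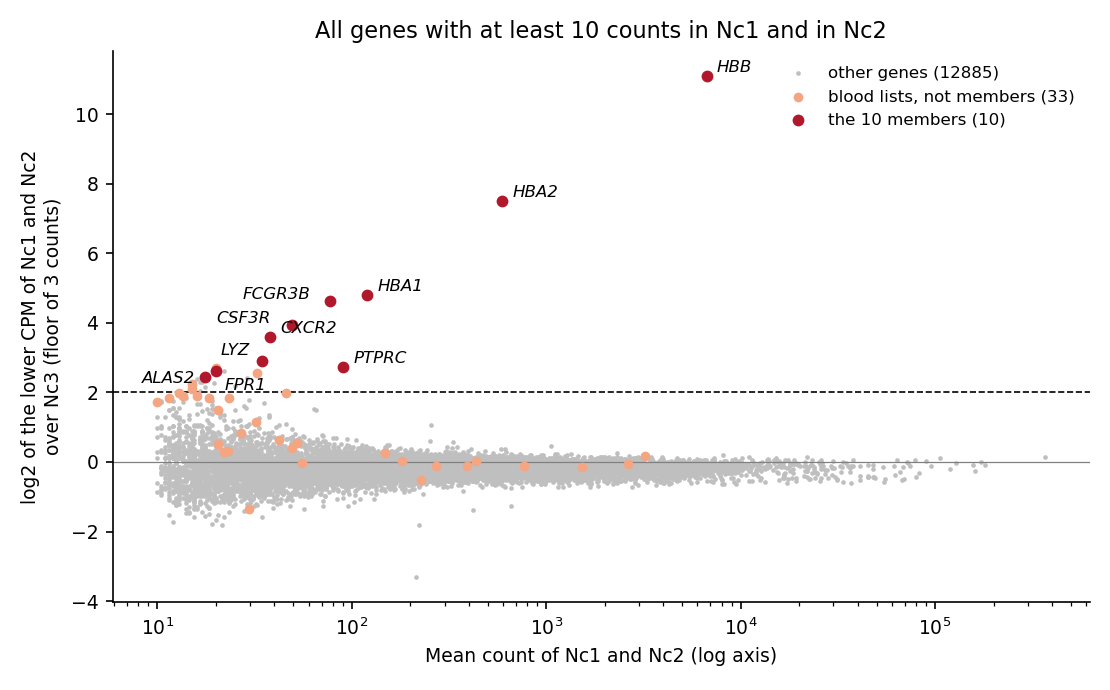
Each point is a gene with at least 10 counts in Nc1 and in Nc2: the mean count of both (log axis) against the log2 ratio of the lower of their CPM to that of Nc3, floored at 3 counts. HBB stands at 11.10 and HBA2 at 7.50, and the dashed line marks the 4-fold threshold that 27 genes reached; taking the lower library pulls the bulk slightly below 0.

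How far the pattern extends was read from 7 lists of blood cell genes, with 100 genes beside the members. Of 24 red cell genes, 8 had at least 10 counts in Nc1 and in Nc2, and 4 of these, all members, reached the 4-fold threshold. The others were present in all 3 libraries. For example, SLC25A37, a mitochondrial iron importer, had 419, 452 and 402 counts, DMTN had 188, 264 and 267 and BPGM had 156, 139 and 119. Some other listed red cell genes were near 0 in Nc1 and Nc2: the anion exchanger SLC4A1 had 2, 5 and 0 counts and the delta globin HBD 0, 1 and 0. The fetal globin HBG1 had 0, 4 and 0 counts and HBG2 none. The glycophorin GYPC, in no list, had 18, 23 and 0 and so was not near 0 there.

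Of 24 granulocyte genes, 10 had at least 10 counts in Nc1 and in Nc2, and 6 reached the threshold, 4 of them members. The whole list summed to 772, 693 and 427 counts, and without its 4 members to 590, 506 and 426. KCNJ15 had 434, 348 and 387 counts and TREM1 27, 27 and 15, so both were present in Nc3 too. MPO, ELANE, CAMP and CEACAM8, granule genes made mainly by neutrophil precursors in marrow, had no count in any library. S100A12 had 0, 4 and 4 counts, S100A9 419, 625 and 566 and S100A8 15, 25 and 15. These S100 genes are abundant in granulocytes, and S100A8 and S100A9 are also made by keratinocytes.

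Of 16 monocyte and shared myeloid genes, 8 had at least 10 counts in both libraries and 2, LYZ and MNDA, reached the threshold. FCGR3A had 11, 26 and 0 counts, CYBB, a subunit of the phagocyte oxidase, 16, 11 and 0, and CD14 22, 25 and 6. FCGR3A was at 0.352 of its Nc2 rate in Nc1 (95% exact interval 0.157 to 0.738, adjusted p = 0.00710, exact binomial test). That test called 1 of the 11 genes of this list that it tested. It called 11 of 49 tested blood list genes beside the members, or 22.4%, and 47.5% of all tested genes. A single call is thus no particular trait of FCGR3A. Of 12 pan-leukocyte genes, 9 had enough counts and 2, PTPRC and HCLS1, reached the threshold. ARHGDIB (3367, 3061 and 2785 counts), RAC2 (2784, 2511 and 2649) and LCP1 (1759, 1300 and 1464) were high in all 3 libraries.

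None of the 17 listed T and natural killer cell genes reached the threshold, 7 of them having at least 10 counts in Nc1 and in Nc2. The nearest was TRBC2, with 21, 11 and 2 counts and a 3.74-fold ratio, while GZMB had 20, 39 and 50 counts. ICOS, a T cell gene in no list and named after its values were seen, reached 4.92-fold with 15, 18 and 3 counts. IL7R had 913, 622 and 692 counts and CCL5 48, 57 and 32. TRAC, the constant part of the T cell receptor alpha chain, had 32, 12 and 10 counts, and CD2 had 20, 21 and 7, so Nc3, where 6 of the 10 members had no count, held a few counts of both. The 8 B cell genes summed to 16, 12 and 12 counts. The 9 platelet genes summed to 34, 39 and 3 counts; TUBB1, the tubulin of platelets, had 12, 14 and 1 and the chemokine PPBP 8, 8 and 0. The platelet sum was thus low, and it lay in Nc1 and Nc2.

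**Figure D4:**
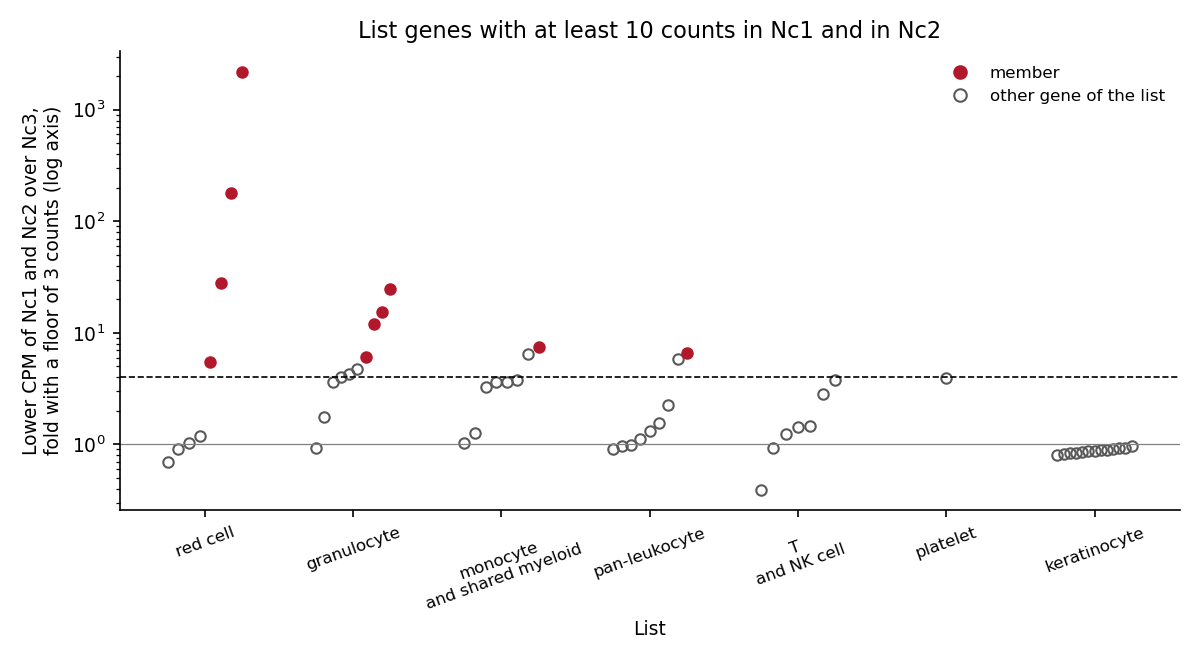
Fold of the lower CPM of Nc1 and Nc2 over that of Nc3 (log axis, Nc3 floored at 3 counts) for genes of each list with at least 10 counts in both; filled circles are members and the dashed line is the 4-fold threshold. Above it lie the 10 members and 4 other genes, from the granulocyte, monocyte and pan-leukocyte lists, and keratinocyte genes lie just below 1.

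For comparisons that use the control group, the members carry a large spread. HBB averaged 267 ± 232 CPM (SD, n = 3), a coefficient of variation of 86.6%. Its mean was 401 CPM without Nc3, 204 without Nc1 and 197 without Nc2. FCGR3B averaged 3.10 ± 2.69 CPM (SD, n = 3) and LYZ 1.37 ± 1.38 CPM. The coefficient of variation of the 10 members lay between 72.4% for PTPRC and 101% for LYZ, a spread that the choice of genes with few or no counts in Nc3 implies. Over the 13290 genes averaging 10 or more counts the median was 15.6%. A library without these transcripts, such as Nc3, lies below the control mean of FCGR3B, though it is a control itself. That mean was 17.3-fold the 3-count limit of Nc3.

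The members took a small part of each library. Together the 10 made up 0.0452% of Nc1, 0.0474% of Nc2 and 9.58e-05% of Nc3. TMM factors were 1.078325, 0.932662 and 0.994320, and without the members and the 7 blood lists 1.077931, 0.932785 and 0.994552. These genes thus hardly moved the scaling of the control libraries. TMM trims genes with extreme ratios, so leaving out so few genes could change little. Leukocyte list genes picked for a high level in Nc3 (ARHGDIB, RAC2, LCP1, CTSS and IL7R) differed far less between the libraries than the members did. Both choices were made by the level in Nc3 and imply this. Where the transcripts of Nc1 and Nc2 came from was not tested.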

How the data were processed

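Reads were paired, of 150 bases each, per the labels. FastQC, HISAT2, StringTie and the build GRCh38 stand in the submitters' processing notes. How strand and multiply matching reads were handled, and with which annotation release, is not given in the sources used here. One table gives raw whole-number counts, as deposited by the authors. The FPKM are the authors' values, scaled by them. Only columns Nc1, Nc2 and Nc3 were used; 6 other columns in each table (12 in all) match no sample label by name. The 3 planned comparisons with treated groups by edgeR's quasi-likelihood test, and their 39 other settings, were therefore not run.

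CPM used library totals. TMM factors came from edgeR 4.0.16 and size factors from DESeq2 1.42.0 (R 4.3.3); neither tool's test was run. Other steps ran in Python 3.11.15 with SciPy 1.17.1. Nc1 and Nc2 were compared over genes with at least 10 counts in the pair by an exact binomial test. On simulated Poisson counts of 14716 genes it recovered 183 of 200 genes changed 2-fold and called 7 others. The changed genes were drawn above a higher count minimum than the test used. Poisson counts hold just the error that the test assumes, so the simulation does not show how often it errs between real libraries. A fold over Nc3 used at least 3 counts there. Member positions equal those of GENCODE release 29. The text names all members, up to 8 genes of each list by summed count, the 15 genes most like HBB, and some seen to be of interest afterwards. Members, lists and the promoter motifs were chosen with earlier results of these data known. Some list genes are not reported here.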

Additional observations from a re-analysis of the deposited data

How the results depend on the processing

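No paired analysis was possible because just the 3 control columns could be mapped. The 6982 genes that differed between Nc1 and Nc2 stayed between 6697 and 7671 under other library sizes and count minimums. The odds ratio of leukocyte to globin counts was 1.18, with an interval that included equal odds, and no alternative gave p under 0.05. The odds ratio was 1.11 without PTPRC (p = 0.286, Fisher's exact test) and 1.15 with HBB as the sole globin (p = 0.0919, Fisher's exact test). With 33 granulocyte, myeloid and pan-leukocyte list genes of at most 3 counts in Nc3 it was 1.06 (p = 0.445, Fisher's exact test). The 27 genes with the HBB pattern became 26 with TMM or DESeq2 sizes, 41 with a floor of 1 count in Nc3, 11 with at least 20 counts in Nc1 and Nc2 and 6 at 8-fold; these settings were chosen after seeing the data. With 1 library left out the count ranged from 66 without Nc1 to 77 without Nc2, since a single library then has to pass; all 27 remained. All 10 members passed in each of these settings except with at least 20 counts, where 8 did, and at 8-fold, where 6 did. No mean level of a member moved by 1 SD under other scaling, but over 3 libraries with so large a spread this shows little. Depth limits the leukocyte members and ALAS2, most of which rest on fewer than 100 counts a library.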
